A study of Mus musculus with 6 samples.

Results

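Genes of the major histocompatibility complex (MHC) and of antigen processing were followed in RNA-seq libraries of the mouse left ventricle. The 56 genes, of 34745 in the gene table, were taken by name: 44 symbols that begin with H2- and a capital letter, and the 12 symbols B2m, Tap1, Tap2, Tapbp, Psmb8, Psmb9, Psmb10, Psme1, Psme2, Nlrc5, Ciita and Erap1. The genes were chosen by symbol alone, but the set was proposed with the measured differences of these genes between the same TAC and Sham libraries known. Its p-values therefore describe these libraries and are not independent support. By role, 42 genes belong to the class I pathway and 13 to the class II pathway. H2-Ke6, which encodes a hydroxysteroid dehydrogenase, shares the name and lies in the same region, but is no MHC chain.

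All animals were male wild-type C57BL/6 mice, given as 8 weeks old. The 3 TAC-labelled libraries came from ventricles after transverse aortic constriction, which loads the left ventricle with pressure, and the 3 labelled Sham from mice operated on without the ligature. Tissue was taken 6 weeks after surgery. The labels do not say whether each library is 1 animal, so a p-value sets a difference against the spread among libraries, which may be technical. Nppa, the atrial natriuretic peptide gene, whose ventricular rise under pressure load is well known, stood at 92.3, 64.3 and 95.2 CPM (counts scaled to the size of each library) in the TAC-labelled libraries and at 773, 1895 and 595 in the Sham-labelled ones. Acta1, the skeletal actin gene that also rises in the loaded ventricle, went the same way (log2 difference −3.23 ± 0.56, edgeR adjusted p = 0.0448). Both go against the labels, and every direction is therefore given between the TAC-labelled libraries and the Sham-labelled ones, as log2 labelled TAC minus labelled Sham ± SE.

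MHC class I molecules sit on nearly all nucleated cells. Each pairs a heavy chain with the light chain encoded by B2m and shows a short peptide made by the proteasome, pumped into the endoplasmic reticulum by the Tap1 and Tap2 transporter, trimmed by Erap1 and loaded with the help of Tapbp. MHC class II molecules pair an alpha with a beta chain, are found mainly on professional antigen-presenting cells such as dendritic cells, macrophages and B cells, and exchange the invariant chain fragment for a peptide with the help of H2-DM. Nlrc5 is the transactivator of class I genes and Ciita that of class II genes. Both act through promoters that carry a row of boxes, among them an X2 box and a Y box. In the heart, class II is carried largely by resident macrophages and dendritic cells.

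Proximal promoters of the class I and class II genes on which the comparison turns are printed first, because the boxes that Nlrc5 and Ciita work through lie there. Each run goes from 200 bases before to 20 bases after the RefSeq start of the gene (GRCm38.p6), 5′ to 3′ on the gene's own strand. Capitals mark CCAAT, the Y box core, TGACG, the X2 box core, and the core of the interferon-stimulated response element (GAAA, any 2 bases, GAAA), each read on either strand, so that ATTGG is CCAAT on the other strand. In H2-T22 the first base of an ATTGG lies just before the window, and in H2-Aa a TGACG on each strand overlaps in 1 run. In H2-Q4 and H2-T22 the marked TGACG lies after the ATTGG, while in H2-K1, H2-D1, B2m and H2-Aa it lies before it. A marked TGACG is a match of letters and need not be an X2 box.
H2-K1 promoter, chr17:34000328-34000547, minus strand: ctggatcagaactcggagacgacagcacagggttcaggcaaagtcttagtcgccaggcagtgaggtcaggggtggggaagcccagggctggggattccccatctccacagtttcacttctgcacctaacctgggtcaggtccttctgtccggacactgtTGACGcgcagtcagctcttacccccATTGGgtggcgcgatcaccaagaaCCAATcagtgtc
H2-D1 promoter, chr17:35262894-35263113, plus strand: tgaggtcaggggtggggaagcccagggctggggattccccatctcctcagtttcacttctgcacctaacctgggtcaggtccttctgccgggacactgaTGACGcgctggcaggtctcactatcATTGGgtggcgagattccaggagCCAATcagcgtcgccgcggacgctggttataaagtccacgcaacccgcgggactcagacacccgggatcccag
H2-Q4 promoter, chr17:35379417-35379636, plus strand: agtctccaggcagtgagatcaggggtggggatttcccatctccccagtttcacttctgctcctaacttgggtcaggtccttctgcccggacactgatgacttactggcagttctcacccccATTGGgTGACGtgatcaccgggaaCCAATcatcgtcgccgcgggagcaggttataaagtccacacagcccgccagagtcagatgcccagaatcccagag
H2-Q6 promoter, chr17:35424650-35424869, plus strand: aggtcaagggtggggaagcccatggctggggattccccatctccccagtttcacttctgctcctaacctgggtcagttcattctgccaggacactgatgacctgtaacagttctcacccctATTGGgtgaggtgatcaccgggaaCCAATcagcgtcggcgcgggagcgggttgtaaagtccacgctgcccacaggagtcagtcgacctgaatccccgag
H2-T22 promoter, chr17:36042723-36042942, minus strand: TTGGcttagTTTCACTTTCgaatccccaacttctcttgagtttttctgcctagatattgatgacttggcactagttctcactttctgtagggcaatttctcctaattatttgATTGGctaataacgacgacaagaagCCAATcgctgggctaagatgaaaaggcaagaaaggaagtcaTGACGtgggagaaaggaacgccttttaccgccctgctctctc
B2m promoter, chr2:122147487-122147706, plus strand: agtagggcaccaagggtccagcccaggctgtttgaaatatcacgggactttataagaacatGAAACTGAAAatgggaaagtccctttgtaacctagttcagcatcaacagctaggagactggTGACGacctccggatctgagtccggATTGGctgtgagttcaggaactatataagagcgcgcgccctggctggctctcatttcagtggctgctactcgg
H2-Aa promoter, chr17:34287804-34288023, minus strand: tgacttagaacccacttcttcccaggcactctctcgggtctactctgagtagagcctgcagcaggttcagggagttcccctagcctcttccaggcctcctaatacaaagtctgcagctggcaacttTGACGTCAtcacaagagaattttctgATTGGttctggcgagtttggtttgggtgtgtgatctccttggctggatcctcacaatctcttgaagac
H2-Eb1 promoter, chr17:34305667-34305886, plus strand: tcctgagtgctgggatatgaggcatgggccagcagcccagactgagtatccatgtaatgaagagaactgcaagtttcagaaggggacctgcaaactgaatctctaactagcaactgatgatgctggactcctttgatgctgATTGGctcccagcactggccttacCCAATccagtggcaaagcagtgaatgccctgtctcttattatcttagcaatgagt

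CCAAT was found in the 300-base promoter window of 8 of the 8 tested class I heavy chain genes with a RefSeq promoter and in 5 of 5 tested class II chain and exchange genes, against 41.1% of 27025 promoters in the table. A gene with several windows was counted if any of them held the letters. For H2-DMa the window at chr17:34122582-34122881 had no CCAAT. The one at chr17:34125268-34125567 had it 198 bases before its start, and both lie upstream of the counted locus (chr17:34135182-34139101). TGACG was in 6 of the 8 heavy chain promoters (75%) and in 1 of the 5 class II promoters, H2-Aa, against 23% of all promoters. The 6 include H2-Q4 and H2-T22, whose printed TGACG lies nearer the start than an ATTGG. It is 73 against 79 bases before the start in H2-Q4 and 22 against 88 in H2-T22. The core of the interferon-stimulated response element was in 5 of the 40 members with a promoter (12.5% against 3.99% of all promoters), which were B2m, Erap1, H2-T22, H2-T23 and Psme1. TTCNNNGAA, the core of the gamma-activated site, was in 4 of the 40, Psmb8, H2-M11, H2-M3 and H2-DMb2 (10% against 9.55%). A TGACG followed by an ATTGG, with 24 to 26 bases from start to start, was looked for after the printed runs had been seen. That pair was in 6 of the 40 members, H2-K1, H2-D1, H2-Q7, H2-M3, B2m and H2-Aa, and in 33 of the 27025 promoters (0.122%). These are matches of letters, not sites shown to be used.

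Most members that could be measured were lower in the TAC-labelled libraries. In these bulk libraries fewer cells of a type and less RNA per cell cannot be told apart. H2-K1, H2-Q4, H2-Q6 and H2-T22, all heavy chain genes of class I, passed the threshold, being 1.87 to 2.80 times as high in the Sham-labelled libraries. None of the 7 tested class II genes passed it, where 1.11% of all tested genes passed and were higher in the Sham-labelled libraries. All 4 calls were lost when any 1 of TAC 1, TAC 2, TAC 3 or Sham 2 was left out. The class II alpha and beta chain genes leaned the same way by less, and their libraries overlapped between the groups. Among the other tested class II members, H2-DMb1 (−0.96 ± 0.27), Ciita (−0.70 ± 0.27) and H2-DMa (−0.66 ± 0.22), all with low counts, were higher in every Sham-labelled library. Of all tested genes 13.6% were so, and H2-Ob overlapped. The widest difference in the other direction was that of Psme1, a proteasome activator gene, which was 1.47 times as high in the TAC-labelled libraries and did not pass.

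The members took 0.0554% to 0.0623% of the gene counts in the TAC-labelled libraries and 0.0757% to 0.0966% in the Sham-labelled ones, at depths of 17399510 to 28401399 counts. Of the 56 members, 31 had counts high enough to be tested, and 30 of those stood above the filter's level of 0.491 CPM in every library (the exception was H2-Ob). Another 9 members had 1 to 27 counts over all 6 libraries, and 16 had none, which allows up to 0.0235 CPM (3 counts over the 6 libraries together, counting error only). The silent 16 were H2-Q3, H2-T3, H2-M1, H2-M2, H2-M9, H2-M11, 6 genes of the H2-M10 cluster and the pseudogene H2-M10.5-ps1, all named as class I, and H2-Pa, H2-Pb and H2-Ea-ps of class II. H2-Ea-ps is the alpha chain gene of H2-E, which is known not to be made in C57BL/6 mice. The 9 with few counts were H2-Q1, H2-Q2, H2-Q10, H2-Bl, H2-M5, H2-M6-ps, H2-Oa, H2-DMb2 and H2-Eb2. RefSeq lists 9 of the 56 as pseudogenes, 4 of them transcribed, and of the tested members these are H2-K2, H2-Q5 and H2-T10.

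Over the whole table edgeR's quasi-likelihood test called 217 of 15198 genes (1.43%) at an adjusted p under 0.05, of which 168 were higher in the Sham-labelled libraries (1.11%) and 49 in the TAC-labelled ones (0.322%). With library totals in place of TMM scaling that split was 296 to 42. Among the 31 tested members 4 were called, all higher in the Sham-labelled libraries. All 4 calls were lost when any 1 of TAC 1, TAC 2, TAC 3 or Sham 2 was left out, where 13 to 17 members still had an unadjusted p under 0.05. Without TAC 1 edgeR called 0 genes of the whole table (2564 had an unadjusted p under 0.05). Without Sham 3 only H2-Q6 was called among the members, and without Sham 1 the calls were H2-K1, H2-Q4 and H2-T22. With all libraries 17 members had an unadjusted p under 0.05, where 20.9% of all tested genes did. Of these, 16 were higher in the Sham-labelled libraries (11.4% of all tested genes) and 1, Psme1, in the TAC-labelled ones (9.56%). DESeq2, run without that filter on low counts, called 8 of 40 members and 1166 of 22065 genes. The log2 difference was negative for 25 of the 31 members against 49.1% of all tested genes, with a median of −0.42 against 0.01 over all tested genes. For 17 members every Sham-labelled library was above every TAC-labelled library, where 13.6% of all tested genes did so, and for Erap1 and Psme1 it was the reverse, where 13.4% did so.

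**Figure D1:**
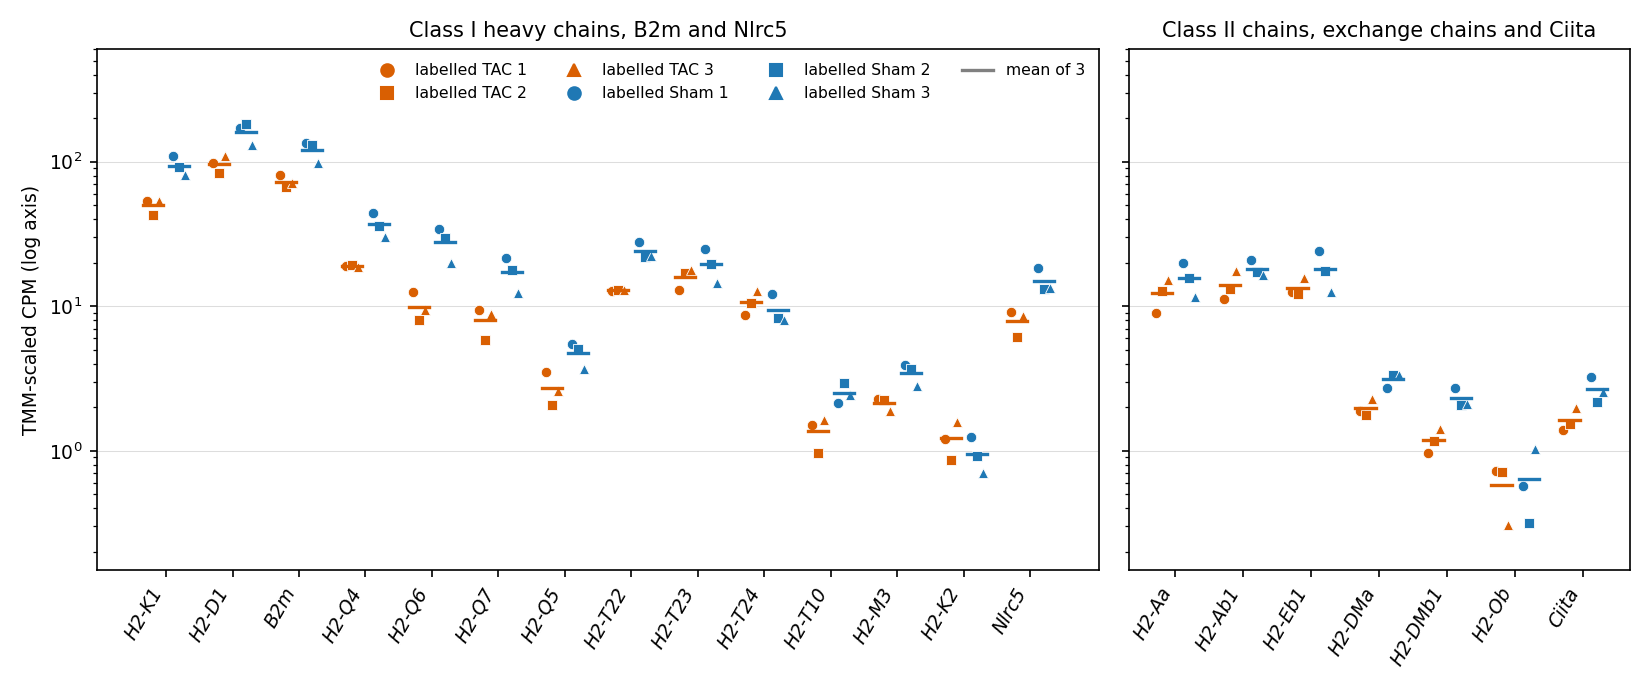
Level of the tested class I heavy chain genes, B2m, Nlrc5 and the tested class II members in each of the 6 libraries, in TMM-scaled CPM on a log axis. The mean of 3 is a line in the colour of its group. H2-K1, H2-Q4, H2-Q6 and H2-T22 separate the groups (H2-Q6 at 8.00 to 12.5 CPM in the TAC-labelled libraries and 19.9 to 34.1 in the Sham-labelled ones), while H2-Aa, H2-Ab1 and H2-Eb1 overlap.

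Levels of single genes are TMM-scaled CPM, given per library or as mean ± SD (n = 3). H2-K1, the K chain that shows peptide to cytotoxic T cells, stood at 53.3, 43.0 and 53.6 CPM in the TAC-labelled libraries and at 110.03, 91.9 and 80.6 in the Sham-labelled ones. The groups did not overlap, and the difference of −0.91 ± 0.15 passed (edgeR adjusted p = 0.0396). H2-D1, the D chain, stood at 98.5, 83.5 and 109 CPM against 171, 183 and 131. It too kept the groups apart, at −0.74 ± 0.16, with an adjusted p of 0.0669 that missed the threshold in edgeR. B2m, the light chain that every class I molecule needs, stood at 80.5, 66.9 and 71.3 CPM against 134, 132 and 98.2. Its groups did not overlap either (−0.73 ± 0.15, edgeR adjusted p = 0.0579), and the ratio of its counts to those of H2-K1 was 1.47 ± 0.120 against 1.29 ± 0.124 (SD, n = 3) with overlap. Both near misses turned on the scaling and the test. With library totals in place of TMM, B2m and H2-D1 were called as well, and so they were by DESeq2 and by limma on log2(FPKM + 0.1).

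The Q genes encode Qa heavy chains, several of which are shed or anchored by a lipid. H2-Q4 stood at 18.9, 19.2 and 18.7 CPM in the TAC-labelled libraries and at 44.5, 35.8 and 30.2 in the Sham-labelled ones (−0.96 ± 0.15, edgeR adjusted p = 0.0391). Its 3 TAC-labelled libraries had an SD of 0.243 CPM and the Sham-labelled ones of 7.21 CPM. H2-Q6 had the widest gap of all tested members, at 12.5, 8.00 and 9.36 CPM against 34.1, 29.8 and 19.9 (−1.49 ± 0.24, edgeR adjusted p = 0.0394). H2-Q7, its neighbour and a gene of the Qa-2 antigen, stood at 9.43, 5.81 and 8.90 CPM against 21.6, 17.7 and 12.4, with no overlap and no call (−1.10 ± 0.26, edgeR adjusted p = 0.0806). DESeq2 (adjusted p = 0.00303) and edgeR without the filter on low counts (adjusted p = 0.0475) called it. H2-Q5, listed as a transcribed pseudogene, was at 2.72 ± 0.706 against 4.75 ± 0.930 CPM (SD, n = 3) and was not called. Set against H2-K1 within each library, H2-Q6 counts were 0.199 ± 0.0322 of it in the TAC-labelled libraries and 0.294 ± 0.0406 in the Sham-labelled ones, without overlap, while H2-Q4 counts were 0.383 ± 0.0543 and 0.390 ± 0.0148 with overlap. The Q genes are near copies of each other and of H2-K1 and H2-D1, so the share of reads given to each of them is uncertain.

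Among the T and M genes 1 was called. H2-T22, a non-classical chain known as a ligand of some gamma delta T cells, stood at 12.7, 13.0 and 12.9 CPM in the TAC-labelled libraries and at 27.9, 21.98 and 22.4 in the Sham-labelled ones (−0.90 ± 0.13, edgeR adjusted p = 0.0327). This was the smallest adjusted p of all members. H2-T10, a near copy of H2-T22 listed as a transcribed pseudogene, was at 1.37 ± 0.350 against 2.52 ± 0.413 CPM without overlap (adjusted p = 0.145 in edgeR). H2-M3, which shows formylated peptides, was at 2.13 ± 0.217 against 3.48 ± 0.577 CPM, also without overlap and without a call. H2-T23, the Qa-1 chain that natural killer cells read, stood at 12.9, 16.96 and 18.0 CPM against 25.0, 19.7 and 14.5. Its groups overlapped (−0.31 ± 0.22), and its counts relative to H2-K1 were higher in each TAC-labelled library, at 0.324 ± 0.0766 against 0.207 ± 0.0242. H2-T24 (10.7 ± 1.98 against 9.47 ± 2.33 CPM) and H2-K2 (1.22 ± 0.355 against 0.957 ± 0.271 CPM) were the heavy chain genes with a positive difference, and both overlapped. H2-T22, H2-T23 and H2-T24 overlap the locus A930015D03Rik, and the sources used here do not give the strand setting of the counts.

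The 12 tested heavy chain genes had a median log2 difference of −0.84, the 4 calls among them (all higher in the Sham-labelled libraries, where 1.11% of all tested genes were called), and 9 whose Sham-labelled libraries were all higher (13.6% of all tested genes). Summed over the 31 heavy chain genes, FPKM was 60.8, 53.5 and 66.4 in the TAC-labelled libraries and 122, 113 and 91.2 in the Sham-labelled ones. The means were 60.2 ± 6.48 and 109 ± 15.8 (SD, n = 3), a log2 difference of −0.85 with no overlap.

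**Figure D2:**
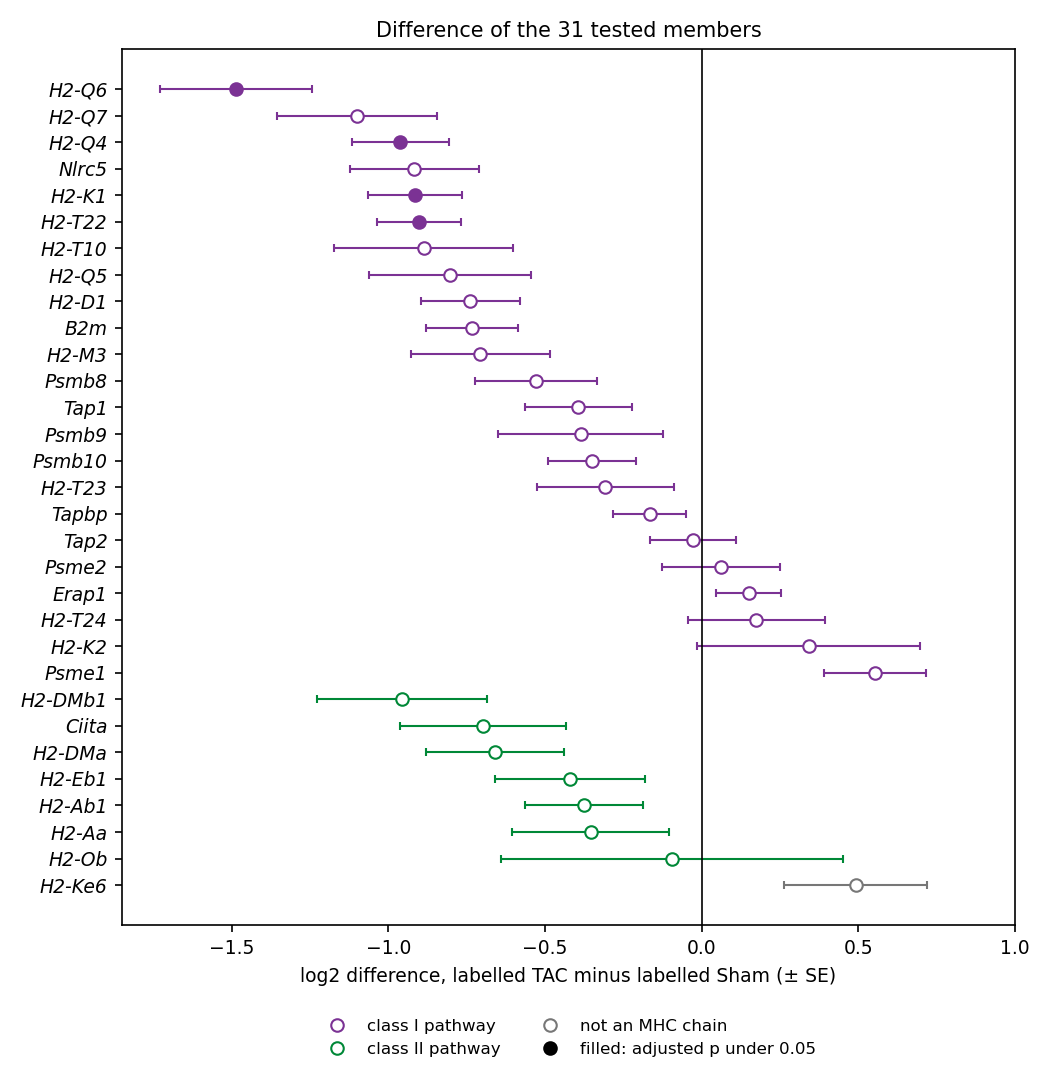
Log2 difference, labelled TAC minus labelled Sham, of the 31 tested members with its SE, with filled points past an adjusted p of 0.05. The 4 filled points are class I heavy chains, from −0.90 to −1.49, and every class II point lies left of 0.

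None of the genes of peptide transport and loading was called. Tap1 was at 7.91 ± 0.255 against 10.41 ± 1.92 CPM without overlap (−0.39 ± 0.17), Tap2 at 20.1 ± 1.39 against 20.5 ± 2.67, Tapbp at 62.9 ± 3.76 against 70.6 ± 7.49, and none was called. The ratio of Tap1 to Tap2 counts was 0.368, 0.442 and 0.373 in the TAC-labelled libraries and 0.536, 0.481 and 0.495 in the Sham-labelled ones. Erap1, the aminopeptidase that trims peptides to length, was slightly higher in each TAC-labelled library (60.3 ± 0.358 against 54.4 ± 4.61 CPM, edgeR adjusted p = 0.448).

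The 3 immunoproteasome subunits, which replace the constitutive ones and favour peptides that fit class I, all had negative differences and no call. Psmb8 was at 4.67 ± 0.636 against 6.75 ± 1.05 CPM and Psmb10 at 12.7 ± 1.17 against 16.2 ± 1.73, both without overlap, while Psmb9 overlapped (4.10 ± 1.02 against 5.37 ± 1.40). As FPKM ratios within a library, Psmb10 to its constitutive counterpart Psmb7 was 0.564, 0.521 and 0.448 in the TAC-labelled libraries and 0.744, 0.588 and 0.608 in the Sham-labelled ones. The ratios Psmb8 to Psmb5 (log2 difference −0.24) and Psmb9 to Psmb6 (−0.43) overlapped between the groups. Tap1 and Psmb9 overlap on the chromosome, and the part of shared reads in their counts was not tested.

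Neither of the proteasome activator genes was called. Psme1, the alpha subunit of the activator ring, stood at 53.4, 51.1 and 44.9 CPM in the TAC-labelled libraries and at 39.5, 26.5 and 35.9 in the Sham-labelled ones. All of the former were higher, though the difference of 0.55 ± 0.16 was not called (edgeR adjusted p = 0.125). The groups overlapped for Psme2, its partner beta subunit, at 8.71 ± 0.964 against 8.35 ± 1.64 CPM. The ratio of Psme1 to Psme2 counts was 7.03, 5.52 and 4.85 against 3.97, 3.97 and 4.26. Psme1 overlaps the locus of Emc9, whose part in its counts was not tested.

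Both transactivators were lower in every TAC-labelled library than in any Sham-labelled one, as were 13.6% of all tested genes. Nlrc5 stood at 9.10, 6.16 and 8.55 CPM against 18.4, 13.2 and 13.4 in the Sham-labelled libraries (−0.92 ± 0.21, edgeR adjusted p = 0.0729). Ciita stood at 1.40, 1.53 and 1.98 CPM against 3.25, 2.19 and 2.55 (−0.70 ± 0.27, edgeR adjusted p = 0.194). Neither passed the threshold. DESeq2 called Nlrc5, and so did edgeR without the filter on low counts (adjusted p = 0.0493).

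For class II, the 3 expressed chain genes did not separate the groups. H2-Aa, the A alpha chain, stood at 8.998, 12.8 and 15.2 CPM in the TAC-labelled libraries and at 20.01, 15.6 and 11.6 in the Sham-labelled ones (−0.35 ± 0.25, edgeR adjusted p = 0.462). H2-Ab1, the A beta chain, stood at 11.3, 13.2 and 17.4 CPM against 20.8, 17.2 and 16.4 (−0.38 ± 0.19, edgeR adjusted p = 0.303). H2-Eb1, the E beta chain, stood at 12.5, 12.2 and 15.6 CPM against 24.1, 17.4 and 12.5 (−0.42 ± 0.24, edgeR adjusted p = 0.359). In all 3 genes Sham 1 was the highest library, and without it the log2 difference was −0.15 for H2-Aa, −0.16 for H2-Eb1 and −0.27 for H2-Ab1. Without TAC 1 it was −0.17 for H2-Aa and −0.24 for H2-Ab1. For each of the 3 TAC 3 was the highest of the TAC-labelled ones. Counts of H2-Ab1 relative to H2-Aa were 1.14 ± 0.113 and 1.18 ± 0.195, and those of H2-Eb1 relative to H2-Aa 1.13 ± 0.235 and 1.13 ± 0.0654, in the TAC-labelled and the Sham-labelled libraries.

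None of the class II exchange chain genes, which had low counts, was called. H2-DMb1 stood at 0.968, 1.17 and 1.42 CPM against 2.73, 2.09 and 2.12 (−0.96 ± 0.27, edgeR adjusted p = 0.118), and H2-DMa was at 1.99 ± 0.267 against 3.14 ± 0.357 CPM. Both genes, whose products form the H2-DM exchange factor, kept the groups apart without a call. H2-Ob, a chain of the H2-DM inhibitor H2-O, was at 0.581 ± 0.239 against 0.642 ± 0.362 CPM with overlap. All 7 tested class II members had negative differences, 3 had an unadjusted p under 0.05 (where 11.4% of all tested genes were that low and higher in the Sham-labelled libraries), and their median was −0.42.

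Class I and class II were set side by side as sums. The class II chains summed to 18.2, 20.5 and 26.3 FPKM in the TAC-labelled libraries and to 37.5, 28.1 and 23.3 in the Sham-labelled ones (21.7 ± 4.20 and 29.6 ± 7.203, log2 difference −0.44, with overlap). The ratio of class II to class I sums was 0.299, 0.383 and 0.397 in the TAC-labelled libraries and 0.307, 0.249 and 0.256 in the Sham-labelled ones. TAC 1 was below Sham 1, so the ratios overlapped as well (0.360 ± 0.0527 and 0.271 ± 0.0319, log2 difference 0.41). A larger difference in class I than in class II was thus seen in the means, but it was not tested, since a sum over chosen genes has no test here. TAC 3 stood apart from the others on the second principal component (21.8% of the variance). Without it the log2 difference was −0.92 for the class I sum, −0.59 for the class II sum and 0.33 for their ratio. Without Sham 1 the class II sum differed by −0.26.

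**Figure D3:**
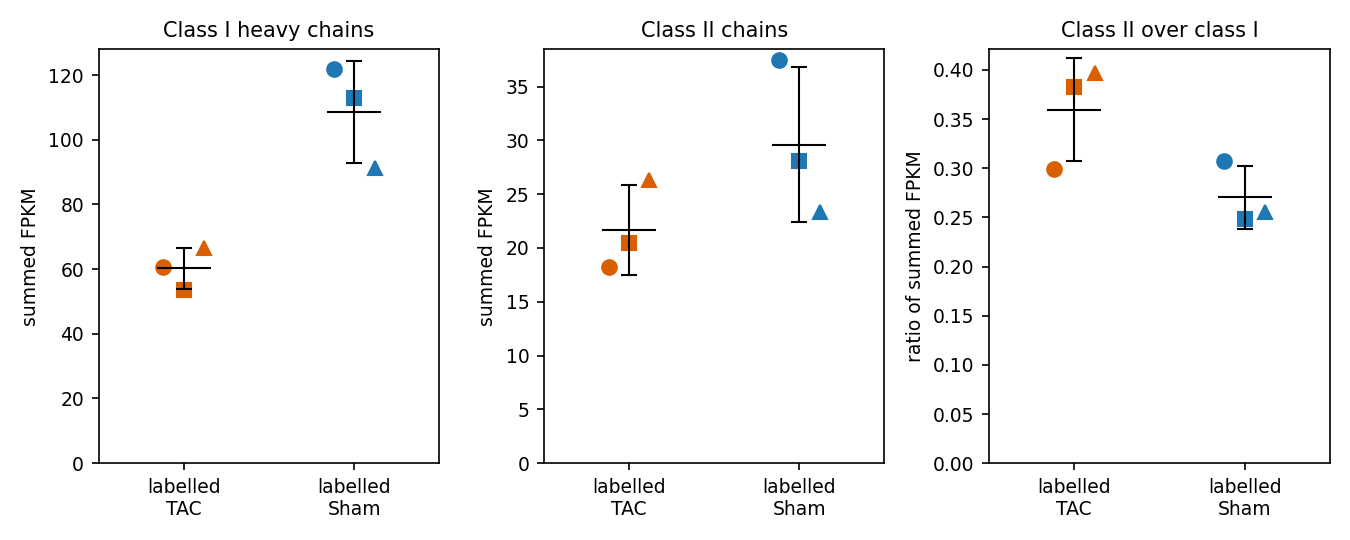
FPKM summed over class I heavy chains and over class II chains, and the class II to class I ratio, per library, with mean and SD of 3. The class I sums are 53.5 to 66.4 in the TAC-labelled libraries and 91.2 to 122 in the Sham-labelled ones, while the class II sums and the ratios overlap.

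Position in the MHC was also compared. The interval from the start of H2-K2 to the end of the last H2 gene (chr17:33974831-37483552) holds 48 members, of which 23 were tested with a median difference of −0.53, and 13 kept the groups apart, all higher in the Sham-labelled libraries. The 221 other genes in the same interval gave 78 tested genes with a median of −0.04, 10 without overlap in that direction and 8 in the other. Over all tested genes the libraries did not overlap for 13.6% in the first direction and 13.4% in the other. Of these 78 neighbours 2 were called, the complement genes Cfb and C4b, both higher in the Sham-labelled libraries, where 1.11% of all tested genes were called. H2-Ke6 was at 15.4 ± 3.53 against 10.96 ± 2.69 CPM, with overlap. Of the called members, H2-Q4 and H2-Q6 are neighbours in the Q region, and H2-K1 and H2-T22 lie to either side: H2-K1 at chr17:33996017-34000333, H2-Q4 at chr17:35379617-35385290, H2-Q6 at chr17:35424850-35430055 and H2-T22 at chr17:36037128-36042747 (GRCm38).

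**Figure D4:**
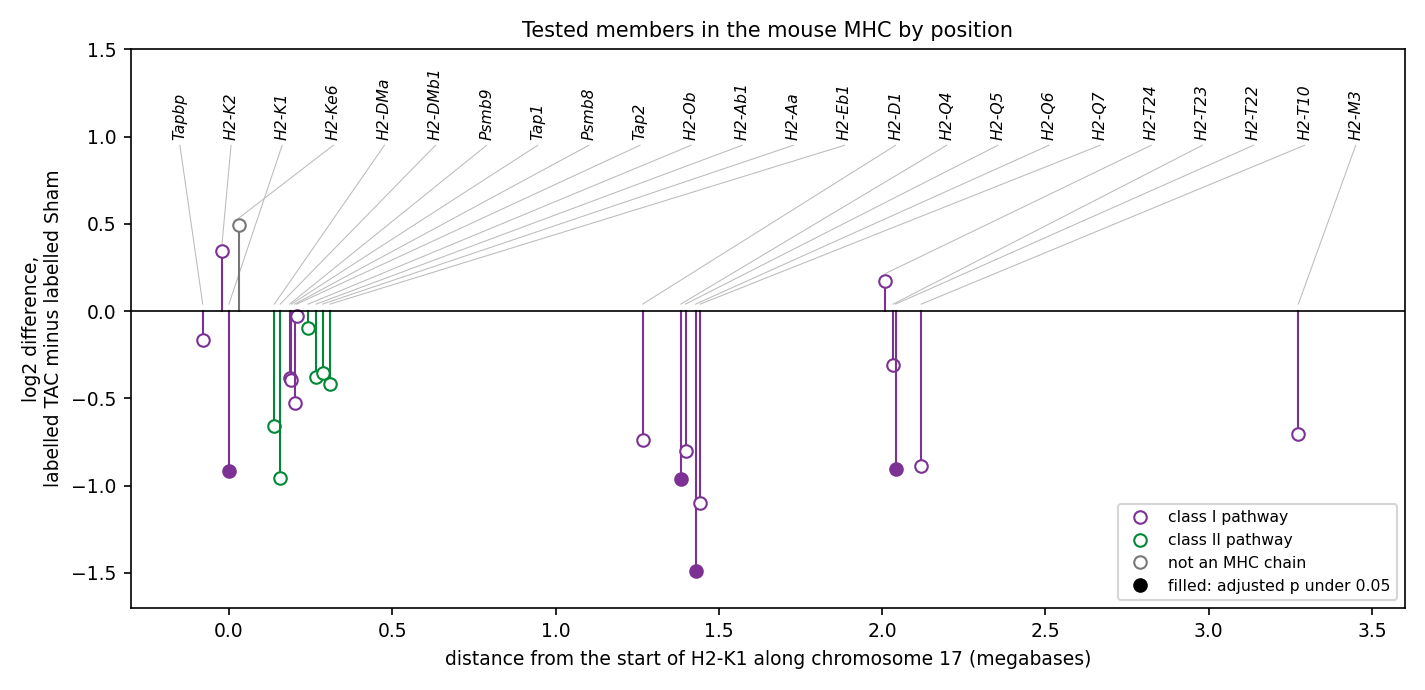
Log2 difference of the tested members on chromosome 17 against the distance from the start of H2-K1 in megabases. Called members (filled) lie at the H2-K1 end, in the Q region and in the T region, and the class II genes between H2-K1 and the Q region lie between −0.96 and −0.09.

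Long non-coding RNA was counted in a second table, and 31 of its transcripts overlap 20 of the members by coordinates. Of these, 19 had at least 10 counts in all. The one with the highest count, NONMMUT029428.2, spans from H2-D1 to H2-Q6 and stood at 6.47, 0.0429 and 3.17 FPKM in the TAC-labelled libraries and 0.167, 12.1 and 6.46 in the Sham-labelled ones. It was near 0 in TAC 2 and Sham 1, and the groups overlapped.

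The partners of the pathways did not all follow. Of 13 tested class II partners 11 had negative differences (median −0.32), where 49.1% of all tested genes did. The 1 called was Cd80, a costimulatory ligand of antigen-presenting cells, where 1.11% of all tested genes were called in that direction. It stood at 0.871, 0.713 and 0.509 CPM against 1.77, 2.54 and 2.82 (−1.76 ± 0.33, edgeR adjusted p = 0.0497). Ctss, the cathepsin that trims the invariant chain, was at 13.2 ± 3.41 against 27.1 ± 5.02 CPM without a call, and neither Ifi30 (−0.73 ± 0.23) nor Cd86 (−0.73 ± 0.25) passed. Cd74, the invariant chain itself, stood at 34.0, 38.3 and 46.0 CPM against 61.5, 55.8 and 34.1, with overlap. Of 13 class I partners 5 had negative differences and none was called by edgeR (1 had an unadjusted p under 0.05, Irf2 at −0.26 ± 0.10), and the chaperones Canx (0.37 ± 0.17) and Calr (0.41 ± 0.22) and the subunit Psmb5 (−0.28 ± 0.13) missed the threshold. Of the class I-like molecules 5 were tested, 3 with negative and 2 with positive differences, and none had an unadjusted p under 0.05 in edgeR. Among them were Procr (−0.75 ± 0.37), Mr1 (−0.10 ± 0.15), Cd1d1 (0.23 ± 0.36) and Hfe (−0.02 ± 0.13).

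Interferon gamma is the best known inducer of both classes. Ifng had no count in any library. Of 20 tested genes of the interferon-gamma response 14 had negative differences, where 49.1% of all tested genes did. Their median was −0.07 against 0.01 over all tested genes, and none was called by edgeR (1 had an unadjusted p under 0.05). That was Ifngr1, a receptor chain, at 52.6 ± 7.52 against 74.1 ± 12.7 CPM (−0.50 ± 0.16, edgeR adjusted p = 0.145). Irf8 (−0.59 ± 0.27) and Gbp6 (−0.42 ± 0.28) did not pass either. Ifngr2, the other receptor chain, went the other way without a call (0.25 ± 0.12). It was higher in every TAC-labelled library, as were 13.4% of all tested genes. Irf1, a transcription factor that interferon induces, was at 13.2 ± 1.53 against 12.4 ± 0.922 CPM with overlap.

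The marker lists of the cells in the tissue went in different directions. Of 12 macrophage markers all 12 had negative differences (9 with an unadjusted p under 0.05, none called by edgeR). Of all tested genes 49.1% had negative differences, and 11.4% had an unadjusted p under 0.05 and were higher in the Sham-labelled libraries. The macrophage markers summed to 223 to 382 CPM in the TAC-labelled libraries and 463 to 508 in the Sham-labelled ones. The 6 fibroblast markers summed to 753 to 845 CPM against 1365 to 1841, with Col1a2 called and Tcf21 overlapping (−0.19 ± 0.31). Of all tested genes 1.11% were called in the direction of Col1a2. The 7 cardiomyocyte markers summed to 44103 to 52857 against 28756 to 39872. Myh6 was the largest part of that sum, at a mean of 29733 against 18268 CPM, and Actn2 alone had a negative difference (−0.09 ± 0.14, with overlap). Endothelial markers overlapped (1016 to 1060 against 883 to 1058 CPM), with 5 of the 8 at negative and 3 at positive differences. Kdr, a large part of that sum, was higher in every TAC-labelled library, as were 13.4% of all tested genes. It stood at 392, 294 and 303 CPM against 206, 229 and 234 without a call (edgeR adjusted p = 0.0912). Dendritic cell markers, mostly Zbtb46, summed to 36.5 to 39.7 against 40.2 to 42.0 CPM, B cell markers to 2.19 to 12.9 against 3.18 to 8.09, and T and NK cell markers, with Cd3d at 0 throughout, to 1.79 to 2.29 against 2.12 to 3.30. The monocyte and neutrophil markers summed to 3.001 to 24.9 against 6.65 to 10.498 CPM, and the atrial markers to 0.677 to 43.9 against 1.94 to 46.2. Divided by the macrophage sum, the class I heavy chain sum was 0.699, 0.540 and 1.13 in the TAC-labelled libraries and 0.964, 0.829 and 0.712 in the Sham-labelled ones. The means were 0.788 ± 0.302 and 0.835 ± 0.126. The overlap came from TAC 3, which had the lowest macrophage sum, while TAC 1 and TAC 2 were below every Sham-labelled library. Divided by the endothelial sum, the class I heavy chain sum was 0.223 ± 0.0247 against 0.424 ± 0.0869 without overlap. The class II sum over the macrophage sum was 0.138 ± 0.0679 against 0.108 ± 0.0255 with overlap. What part these cells have in the differences was not tested.

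**Figure D5:**
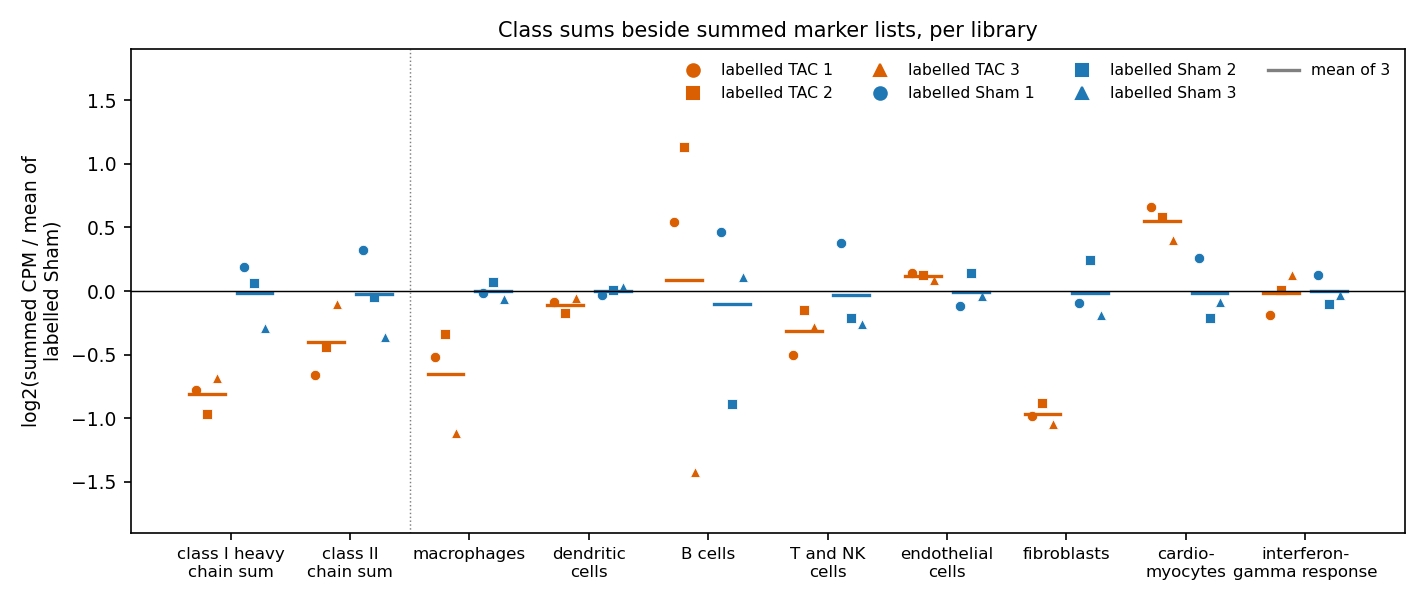
Summed CPM of the classes and of the marker lists per library, as log2 of the ratio to the mean of the Sham-labelled libraries. The class I, macrophage, fibroblast and, narrowly, dendritic cell sums separate the groups in the same direction, and the cardiomyocyte sum in the other. The class II and endothelial sums overlap.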

How the data were processed

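Per the file headers, the gene table and the lncRNA table give each library 1 count column and 1 FPKM column. Reads were handled with HISAT2 2.0.4 and StringTie 1.3.0 on GRCm38 (mm10), per the submitters' processing notes. The sources used here do not give the counter, its strand setting or the annotation. The deposited counts are whole numbers that sum to 17399510 to 28401399 per library. The FPKM deposited by the authors imply a length above the span of the locus for 1208 of 22073 genes and 9 of 40 members, so ratios between genes are read only across libraries, not by their size.

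The members and gene lists were chosen with earlier results of these data known. Differences come from edgeR 4.0.16 (quasi-likelihood, TMM, filterByExpr with a minimum count of 10, no block, Benjamini-Hochberg over all genes tested) in R 4.3.3. SE is the absolute log2 difference over the square root of F, and CPM is TMM-scaled. Members with a mean FPKM of at least 1, called genes and up to 4 genes per list by p were named. Cfb, C4b, NONMMUT029428.2 and further list genes (Cd74, Irf1) were chosen after their values were seen. Alternatives used limma 3.58.1 on log2(FPKM + 0.1) and log2(FPKM + 1), DESeq2 1.42.0, other scalings and filters, a replicate block and each library left out. Of the pathway lists, March1 was not matched. Promoters are from RefSeq (GRCm38.p6) and were matched for 40 of 56 members by symbol. The test was tried on simulated data. Replicate libraries differed by more than counting noise (chi-square per gene of at least 16.7).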

Additional observations from a re-analysis of the deposited data

How the results depend on the processing

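The count of 217 called genes was 338 with library totals without TMM, 432 without a filter on low counts, 1166 with DESeq2 and 41 with the replicate block, and 0 to 397 when 1 library was left out. DESeq2 gave 60.6% of its calls higher in the libraries labelled Sham, against 77.4% in edgeR and 87.6% with library totals, which moved the median log2 difference of all genes to −0.06. The 4 called members became 8 without a filter and 8 with DESeq2, and 0 to 3 when 1 library was left out. Without a filter 40 members and 22073 genes were tested, and with DESeq2 40 members and 22065 genes. With the replicate block 0 members were called by edgeR (16 had an unadjusted p under 0.05, and the smallest adjusted p was 0.0706). The numbers do not pair the libraries: deviations of same-numbered libraries correlated at −0.136, −0.118 and −0.0959, so only a number is shared. Median-of-ratios scaling and a mean FPKM of at least 1 kept the count at 4, and both limma fits gave 6.

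When 1 library was left out, the log2 difference of Tap2 ran from −0.12 to 0.064 (0.031 without TAC 2 and 0.064 without Sham 1), that of Psme2 from −0.075 (without Sham 2) to 0.21, and that of H2-Ob from −0.45 to 0.41 (0.21 without TAC 3 and 0.41 without Sham 3). Psme2 was at −0.0013 with library totals. Without Sham 1, Psmb9 went from −0.39 to −0.16, H2-T23 from −0.31 to −0.11 and Tap1 from −0.39 to −0.25. The cause was not tested. The class sums and ratios kept their direction under each alternative run, from −0.76 to −0.97 for class I, −0.26 to −0.60 for class II and 0.33 to 0.53 for their ratio. Low counts limit what can be said of H2-Ob, H2-K2 and the 9 members with few counts.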
